A study of Mus musculus with 7 samples.

Results

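The Dlk1-Meg3-Dio3 cluster is an imprinted domain of mouse chromosome 12, and its 6 named genes, Dlk1, Meg3, Rtl1, Rian, Mirg and Dio3, were examined by allele in tibial growth plates. They were chosen by symbol, as the rows whose Ensembl identifiers carry these names in the mouse GENCODE annotation, out of 43346 genes with estimated counts. All 6 were found, and all had a count above 0 in every mouse. In imprinted domains one parental copy of a gene is silenced by marks set in the germ line. Here the paternal chromosome is known to express the protein-coding genes Dlk1, Rtl1 and Dio3, and the maternal chromosome the noncoding RNAs Meg3 (also called Gtl2), Rian and Mirg, which carry arrays of microRNAs and small nucleolar RNAs. The domain is known for its effects on prenatal growth, muscle and fat.

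Growth plates, the cartilage that lengthens a bone, were taken from both ends of the tibia of 7 male C57BL/6J × CAST/EiJ F1 mice aged 21 d, and no treatment or second genotype was included. Every F1 mouse carries a C57BL/6J (B6) and a CAST/EiJ (CAST) copy of each autosome, and ribosomal RNA was depleted from total RNA before sequencing. Counts were estimated for each allele from the single-base and insertion or deletion differences of the strains, so that a read that fits both alleles is divided between them and counts can be fractions. The 7 mice, numbered 1, 2, 3, 4, 5, 7 and 8, are replicates of 1 condition, and P-values measure only the spread between them.

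Total depth was 14098019 to 37849667 counts per mouse, lowest in mouse 7, and 15.5% to 23.8% of it came from Rn7s1, Rn7s2 and Rn7sk. These totals exceed the average number of read pairs that the methods of the study give, and how counts relate to read pairs is not stated. Depth, CPM and counting intervals here thus refer to estimated counts and not to read pairs or molecules. The labelled tissue was checked with marker lists: 9 chondrocyte markers summed to 60950 to 97490 CPM (counts scaled to a total of 1000000 per mouse), while 6 osteoblast markers summed to 36040 to 65390, 6 erythroid markers to 7891 to 19320 and 8 skeletal muscle markers to 3893 to 8438 CPM. Of 4 muscle progenitor markers, Pax7 and Myf5 were under 1 CPM in every mouse. In such bulk tissue, fewer cells of a type and less RNA per cell cannot be told apart.

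Mitochondrial genes, which come from the mother, had 0.0136% ± 0.0052 (SD, n = 7) of their counts from the CAST allele, and X-linked genes, which a male also inherits from the mother, had 8.89% ± 0.468 (SD, n = 7). The mother of these mice was thus a B6 mouse, and the B6 copy of chromosome 12 is the maternal copy. All 7 mice come from this 1 direction of the cross, so an effect of the parent and an effect of the strain cannot be told apart in any value below. Among 257 X-linked genes that reached 100 counts in every mouse, the median CAST share was 0.839% and the quartiles were 0.249% and 4.50%. These shares show what is assigned to the other allele in genes of which the mice carry 1 copy only.

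Of the 6 genes, 5 differed between the alleles, and they differed in both directions. Meg3, Rtl1, Rian and Mirg were counted almost entirely from the B6 allele, and Dlk1 mostly from the CAST allele, in 7 of 7 mice each. Dio3, with 2 to 13 counts per mouse, showed no difference that passed the test. The test was edgeR's likelihood-ratio test over all tested genes with the Benjamini-Hochberg false discovery rate (FDR), and an FDR under 0.20 was called. By this rule 32.6% of the 21805 tested genes were called, 15.4% with more CAST and 17.2% with more B6 counts. Against this background, 5 of 6 cluster genes were called, 1 with more CAST and 4 with more B6 counts.

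**Figure D1:**
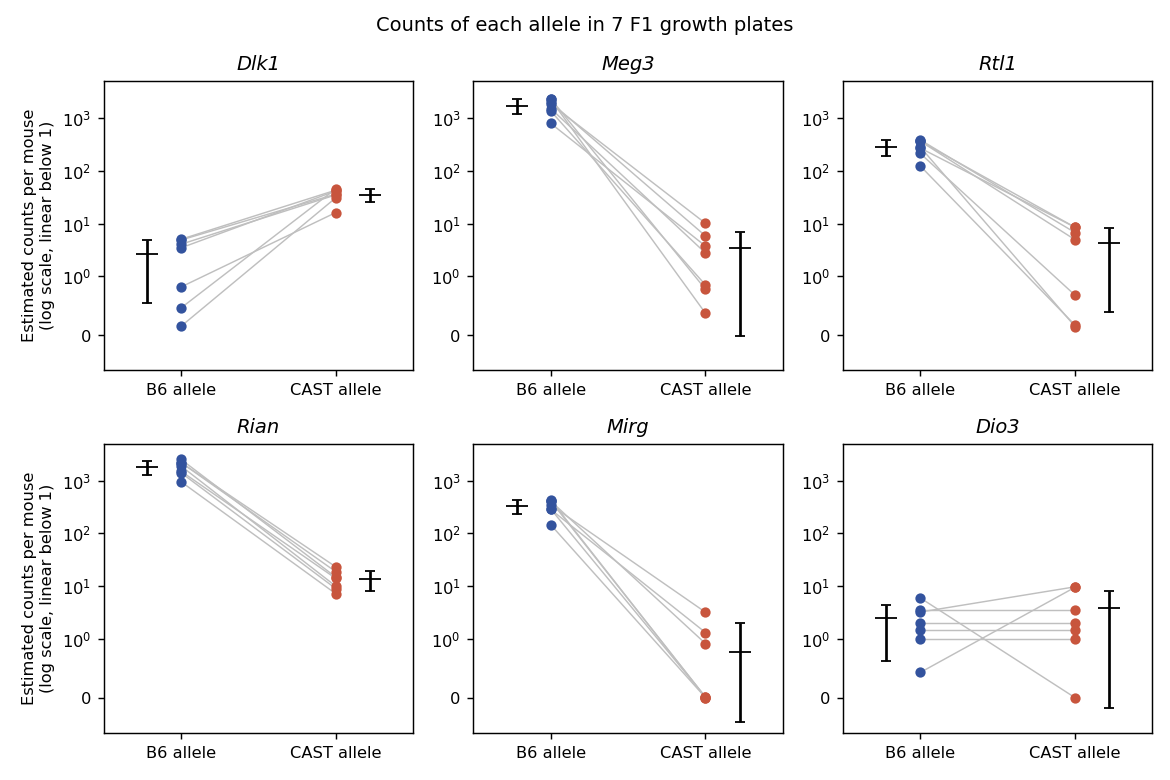
Estimated counts of the B6 and the CAST allele of each cluster gene, on an axis that is logarithmic above 1 and linear below. Each point is a mouse, grey lines join the alleles of a mouse, and black bars give the mean and SD of 7 mice. The alleles do not overlap for Dlk1, Meg3, Rtl1, Rian and Mirg, and they overlap for Dio3.

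The starts of Dlk1 and Meg3, the genes at which the expressed allele switches, are shown here as the 250 bases before the RefSeq start (GRCm38.p6, plus strand), with CpG dinucleotides, the sites of DNA methylation, in capitals. Dlk1 spans 109452823 to 109463336 and Meg3 109541001 to 109571726 on chromosome 12 (GENCODE M21, GRCm38), and the sequences below lie at chr12:109452573-109452822 and chr12:109540746-109540995.
Dlk1: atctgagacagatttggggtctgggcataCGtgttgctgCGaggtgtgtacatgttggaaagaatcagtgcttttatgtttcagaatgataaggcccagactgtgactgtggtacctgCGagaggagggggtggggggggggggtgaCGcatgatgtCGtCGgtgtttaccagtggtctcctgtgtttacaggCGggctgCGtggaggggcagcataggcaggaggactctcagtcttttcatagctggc
Meg3: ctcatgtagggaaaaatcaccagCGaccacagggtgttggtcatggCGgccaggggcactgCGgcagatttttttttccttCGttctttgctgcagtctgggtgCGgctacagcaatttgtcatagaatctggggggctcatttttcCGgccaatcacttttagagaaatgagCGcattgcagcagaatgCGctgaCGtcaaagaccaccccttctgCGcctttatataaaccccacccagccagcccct
The Dlk1 sequence holds 8 CpG and the Meg3 sequence 10, and the median of 32851 promoters of the same length was 6. On either strand, the cAMP response element TGACGTCA was found in 1.55% of these promoters, and the Meg3 sequence holds it from 57 bases before the start. The TATA box TATAAA, found in 12.4% of promoters, has overlapping matches on opposite strands of the Meg3 sequence, from 29 and 25 bases before the start. TGCCGC, the core of the motif of the imprint-protecting zinc finger protein ZFP57, was found in 8.68% of promoters and once in the Meg3 sequence, from 190 bases before the start. None of these 3 motifs was found in the Dlk1 sequence. No methylation or binding was measured in this series.

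Dlk1 encodes a transmembrane protein related to the Notch ligands that restrains the differentiation of fat and other mesenchymal cells. Its CAST counts were 16.2 at the lowest, 36.1 at the median and 45.5 at the highest, and its B6 counts were 0.150, 3.47 and 5.04. The CAST count was above the B6 count in every mouse, and the lowest CAST count was above the highest B6 count. The mean was 35.4 ± 9.90 CAST and 2.70 ± 2.15 B6 counts (SD, n = 7). CAST over B6 gave 3.80 as log2 fold change (FDR 7.14e-25, edgeR), and an exact sign-flip permutation test on log2 ratios of the mice, two-sided here and below, gave p = 0.0156, its smallest possible value with 7 mice.

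The B6 allele supplied 6.69% ± 4.67 (SD, n = 7) of Dlk1 counts, with 0.484% in mouse 2 as the lowest and 11.9% in mouse 8 as the highest value. Pooled over the mice, 19 of 267 counts were B6, or 7.07% (95% exact Clopper-Pearson interval 4.34% to 10.9%). Intervals cover counting error only, and since both ends of a read pair were processed separately, counts may not be independent molecules. The share lies above the upper quartile of the X-linked genes. Those genes carry only a B6 copy and show counts placed on CAST, not on B6, so the shares are not like for like. At 17 to 48 counts per mouse, counting intervals of the mice overlap even between the lowest and the highest share, since they reach from 0.00% to 11.2% in mouse 2 and from 4.08% to 26.2% in mouse 8.

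Meg3 is a long noncoding RNA of the maternal chromosome, known as a growth suppressor and as the first transcript after the domain's control region. Its B6 counts were 790.2 at the lowest, 1846 at the median and 2305 at the highest, and its CAST counts 0.371, 2.77 and 10.1. Every mouse thus had far more B6 counts. The log2 fold change was -8.84, with an FDR below the smallest number the software can write (edgeR; exact sign-flip permutation test, p = 0.0156). The CAST allele supplied 0.230% ± 0.214 (SD, n = 7), close to the lower quartile of the X-linked genes. It was below that quartile with all mice and above it without mouse 3, 5 or 8 (0.262%, 0.265% and 0.257%). Reads of Meg3 were in part divided with other genes, since its total was not a whole number (to a tolerance of 0.0001) in any of the 7 mice.

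Rian, which hosts small nucleolar RNAs, lies at 109603940 to 109661716 and had the most counts of the cluster. Its B6 counts were 950.8, 1884 and 2521 at the lowest, the median and the highest, and its CAST counts 7.20, 14.03 and 23.2. The log2 fold change was -7.00, again with an FDR too small for the software to write (edgeR; exact sign-flip permutation test, p = 0.0156). The CAST share was the steadiest of the cluster at 0.760% ± 0.190 (SD, n = 7), between 0.528% and 1.05%. Its totals, like those of Meg3, were not whole in any mouse.

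Mirg, a microRNA host at 109729764 to 109749460, had B6 counts of 146.0, 346 and 432 at the lowest, the median and the highest. Its CAST counts were 0.00228, 0.0121 and 3.22, so that in 4 of 7 mice almost nothing was assigned to CAST. The log2 fold change was -8.61 (FDR 5.17e-226, edgeR; exact sign-flip permutation test, p = 0.0156). Over all mice 6 of 2326 counts were CAST, or 0.237% (95% exact interval 0.0947% to 0.561%). Mouse 2 held most of them, and the mean share of 0.232% over 7 mice was 0.116% without it.

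Rtl1, derived from a retrotransposon and needed for the capillaries of the placenta, is a protein-coding gene on the minus strand at 109589193 to 109600330. It is known to be expressed from the paternal copy, and the same bases are transcribed on the other strand of the maternal chromosome. In these growth plates its row had B6 counts of 122.8, 281 and 383 at the lowest, the median and the highest, and CAST counts of 0.144, 4.93 and 8.49. The log2 fold change was -6.07 (FDR 1.82e-133, edgeR; exact sign-flip permutation test, p = 0.0156), so its direction was that of Meg3, Rian and Mirg and opposite to that of Dlk1. The library kit marks the strand, but use of the strand in counting is not given in the sources used here, and without it reads of Rtl1 and of the antisense RNA cannot be told apart.

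The antisense strand of Rtl1 carries the microRNAs shown here, as the 3p arm or the only listed arm (RefSeq, GRCm38.p6), with the seed, bases 2 to 8, in capitals.
miR-431-3p: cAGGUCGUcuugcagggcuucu
miR-433-3p: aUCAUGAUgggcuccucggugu
miR-127-3p: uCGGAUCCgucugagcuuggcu
miR-434-3p: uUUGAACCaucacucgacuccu
miR-432: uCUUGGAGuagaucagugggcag
miR-136-3p: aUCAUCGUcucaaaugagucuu
They are listed from the end of Rtl1 toward its start, and their 6 seeds differ. Their hairpins lie between 109590447 and 109595388, inside the single coding exon of Rtl1 at 109590172 to 109595403, on the opposite strand. All 6 hairpins, of 62 to 124 bases, were found as exact reverse complements in the 6358-base Rtl1 transcript. A microRNA made from the antisense RNA is therefore fully complementary to Rtl1 mRNA, which is how these microRNAs are known to cut it.

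The CAST share of Rtl1 was 1.28% ± 1.17 (SD, n = 7), lowest in mouse 4 with 0.0513% and highest in mouse 2 with 3.06%, and lay between the median and the upper quartile of the X-linked genes. Pooled, 30 of 2019 counts were CAST, or 1.47% (95% exact interval 1.00% to 2.11%). This pooled interval does not overlap those of Meg3 (0.128% to 0.297%), Mirg, or Rian (0.617% to 0.927%), but it takes no account of the spread between mice. When the share of the lower allele was compared over the mice in all 10 pairs of the 5 called genes, none passed an adjusted p of 0.05 (exact sign-flip permutation test, Benjamini-Hochberg over 10 pairs, smallest adjusted p = 0.0781). Dlk1 was higher by 5.41 to 6.46 percentage points than the others, in 6 of 7 mice each. With the allele ratios compared on the log2 scale, Dlk1 against Meg3, Rian and Mirg, and Meg3 against Rtl1, passed (adjusted p = 0.0391, same test). At 17 to 48 counts per mouse and a pseudocount of 0.5, the log2 ratio of Dlk1 is capped by its depth. Its passes on this scale therefore cannot tell a higher share of the lower allele from fewer counts. Depth and pseudocount enter the pass of Meg3 against Rtl1 as well. In mice 4 and 7 the CAST share was higher for Meg3 (0.183% and 0.472%) than for Rtl1 (0.0513% and 0.136%). With the pseudocount the order turned, with log2 ratios of -8.85 and -7.54 for Meg3 and -8.77 and -7.53 for Rtl1.

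Dio3, the deiodinase that inactivates thyroid hormone, lies at 110279068 to 110281097, at the far end of the domain. Its total was 2, 6 and 13 counts at the lowest, the median and the highest. In 4 of 7 mice the B6 and CAST counts were equal (within 1e-06), CAST was higher in mice 2 and 8, and B6 was higher in mouse 3, where all 6.00 counts but a trace were B6. The log2 fold change was 0.74 (FDR 0.515, edgeR; exact sign-flip permutation test, p = 1.00). Without mouse 3 it was 1.29 with an FDR of 0.154, past the threshold. Equal counts cannot be told apart from reads divided evenly between the alleles, and 16 of the 45 counts lie in those 4 mice. The mean B6 share was 47.0% over 7 mice and 43.1% over the other 3, which leaves few counts that could show a difference.

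Between Begain and Dio3 the annotation lists 122 genes, of which 99 are in the deposited counts and 25 had any count. Besides the 6 genes, 3 reached 10 counts in every mouse, and all 3 were called with more B6 counts. Gm26945 (109640341 to 109642351, inside the interval of Rian) had 34.9 ± 17.2 B6 counts (SD, n = 7; FDR 1.65e-42, edgeR). Its CAST counts summed to 0 after rounding, of 244 in all, which allows a CAST share of up to 1.23% by a floor of 3 counts and 1.5% by the exact interval. Gm37899 and B830012L14Rik, which lie between Rian and Mirg, had 81.6 ± 32.3 and 41.1 ± 12.4 B6 counts (SD, n = 7; FDR 2.31e-81 and 1.08e-54, edgeR). CAST supplied 1 of 572 counts of Gm37899 and, after rounding, 0 of 288 of B830012L14Rik, which allows up to 1.04% by the same floor and 1.27% by the exact interval. The stretch from Meg3 to Mirg was thus counted from B6 wherever it had 10 counts or more.

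MicroRNA and small nucleolar RNA genes themselves were hardly counted. On its own strand, Rian spans 13 annotated small nucleolar RNA and 4 microRNA genes, Mirg 14 microRNA genes and Meg3 2, and the stretch between Rian and Mirg has 26 microRNA and 10 small nucleolar RNA genes. Of 84 such genes of the domain in the files, 13 had any count, the highest was 2 counts in a mouse, and 0 had a count in every mouse. The libraries were built to hold longer RNAs, so the mature small RNAs were not measured.

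Genes around the domain were less one-sided. Begain, at the edge next to Dlk1, had 9.51 ± 4.29 B6 and 9.16 ± 4.73 CAST counts (SD, n = 7; FDR 1.00, edgeR). Of the 5 genes beyond Begain, Yy1, Wars and Wdr25 were not called. Slc25a29, a mitochondrial carrier, was called with more CAST counts (log2 fold change 0.41, FDR 0.111, edgeR), a call that was lost without mouse 5, 7 or 8 (FDR 0.261, 0.244 and 0.325). Its neighbour Slc25a47, another carrier, was called with more B6 counts in 7 of 7 mice (-1.82, FDR 1.56e-07). On the Dio3 side, Ppp2r5c, Dync1h1, 1700001K19Rik, Hsp90aa1 and Wdr20 were not called. Dync1h1, with the most counts of these, had a CAST share of 49.2% ± 0.711 (SD, n = 7).

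**Figure D2:**
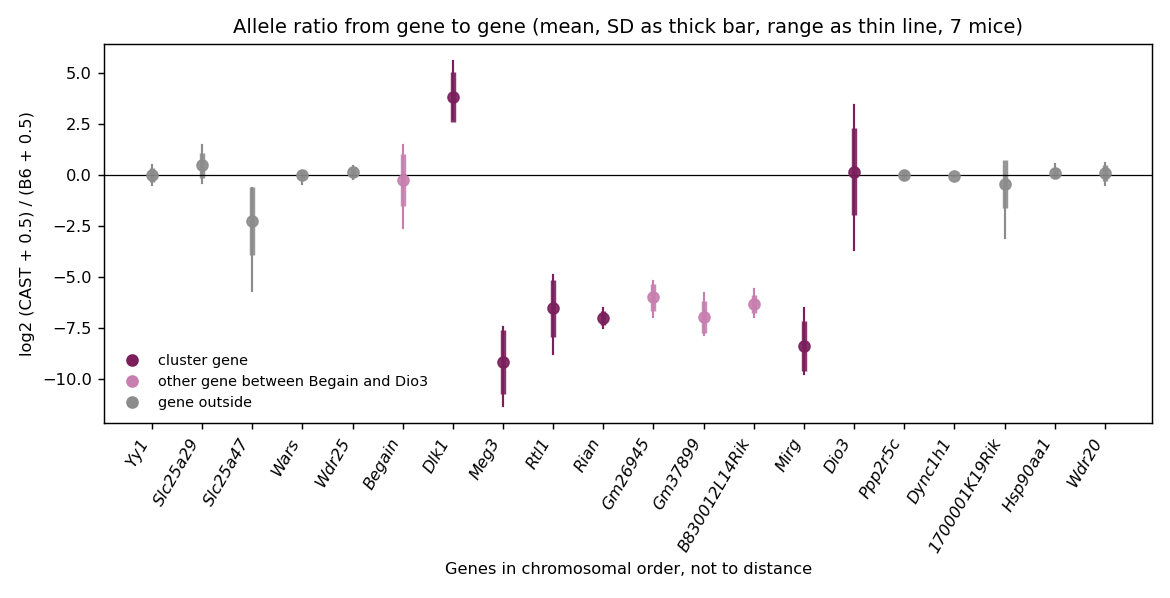
Log2 ratio of CAST to B6 counts, with 0.5 added to each, for genes in chromosomal order from Yy1 to Wdr20, spaced evenly, leaving out genes under 1 count in every mouse. Points are means of 7 mice, thick bars the SD and thin lines the range. Dlk1 lies above 0 and the genes shown from Meg3 to Mirg lie between -11.3 and -4.90 in every mouse, while Begain and Dio3 range across 0.

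Levels, as distinct from allele ratios, were compared per length. Here and below, the level of Rtl1 is that of its row, which may hold reads of the antisense RNA. Rian had 3.78 ± 0.318 and Meg3 3.60 ± 0.538 CPM per kilobase of exon (SD, n = 7), followed by Mirg with 1.72 ± 0.234, Rtl1 with 1.71 ± 0.353, Dlk1 with 0.261 ± 0.0695 and Dio3 with 0.118 ± 0.0656. Of the 5 neighbouring steps in this order, Meg3 was above Mirg and Rtl1 above Dlk1 in 7 of 7 mice (exact sign-flip permutation test of log2 levels, adjusted p = 0.0391 over 5 steps). Rian and Meg3 (adjusted p = 0.234), Mirg and Rtl1 (adjusted p = 0.703) and Dlk1 and Dio3 (adjusted p = 0.0521) did not differ beyond their spread by the same permutation test. Exons of all annotated transcripts were counted in the length, so genes with many isoforms have lower values.

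Over the mice, Rian varied least, from 63.7 to 80.4 CPM, and Dio3 most, from 0.131 to 0.437 CPM. Rian had 958 to 2536 counts per mouse and Dio3 2 to 13, and counting error was not separated from variation between mice. Meg3 ran from 56.3 to 83.5, Rtl1 from 8.73 to 14.1, Mirg from 10.4 to 14.9 and Dlk1 from 1.04 to 2.19 CPM. Mouse 3 was highest for Meg3, Rtl1, Rian and Mirg, and mouse 7 was lowest for Meg3, Rtl1 and Mirg. The count of Meg3 was 5.37 to 6.70 times that of Rtl1 in every mouse.

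The levels of Meg3 and Rtl1 rose and fell together over the 7 mice (Pearson r = 0.93, permutation p = 0.000992, adjusted p = 0.00992 over 10 pairs; Spearman rho = 0.96, permutation p = 0.00278, adjusted p = 0.0278). Without mice 3 and 4, the farthest from the median of Meg3, r was 0.84. Meg3 and Mirg (r = 0.84, permutation p = 0.0127; rho = 0.86, permutation p = 0.0238) and Rtl1 and Mirg (r = 0.89, permutation p = 0.0141; rho = 0.82, permutation p = 0.0341) had an adjusted p of 0.0470 for r and 0.114 for rho. Without mice 3 and 4, r was 0.76 and 0.82. Meg3 and Rian had an r of 0.78 that missed the threshold (permutation test, adjusted p = 0.0865), passed it with TMM library sizes (r = 0.96, adjusted p = 0.0337) and was 0.42 without mice 3 and 4. Rtl1 and Rian (r = 0.75, adjusted p = 0.0865) and Rian and Mirg (r = 0.67, adjusted p = 0.155) did not pass the permutation test either. With TMM library sizes their r was 0.92 and 0.81 (same permutation test, adjusted p = 0.05 and 0.0901, neither under 0.05). Without mice 3 and 4, r of Rtl1 and Rian was 0.78, and r of Rian and Mirg turned to -0.23 without mice 1 and 3. No pair with Dlk1 passed (adjusted p from 0.260 to 0.830, same permutation test).

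These genes share their libraries, and marker lists also varied over the mice. Of 40 pairs of a gene and a marker list, 0 passed an adjusted p of 0.05 (permutation test, smallest adjusted p = 0.517). The largest r of Meg3 and Mirg was with the erythroid list (-0.73 and -0.78), that of Dlk1 and Rtl1 with the fat list (-0.76 and -0.68), and that of Rian with the endothelial list (0.70). Meg3 and Rtl1, which varied together, both had their largest rank correlation with the chondrocyte list (rho = 0.82 and 0.79, permutation test, adjusted p = 0.561 for both). Their r with this list was 0.68 and 0.65, and 0.51 and 0.095 without the 2 mice farthest from the median. The 4 fat markers summed to 87.7 to 167 and the 4 endothelial markers to 163 to 242 CPM, and no marker of these 4 lists was under 1 CPM in every mouse. Their part in the levels was not tested.

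**Figure D3:**
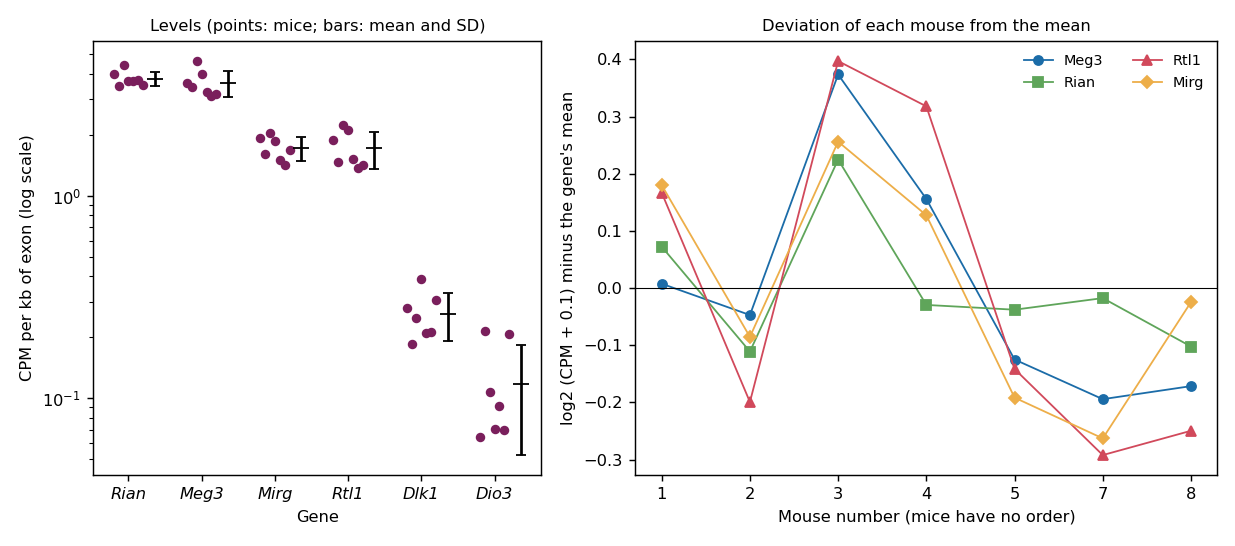
Left, level of each cluster gene in CPM per kilobase of exon on a log axis, with a point per mouse and bars for the mean and SD of 7 mice. Right, deviation of each mouse from the mean of the gene in log2(CPM + 0.1) for Meg3, Rian, Rtl1 and Mirg, where lines only guide the eye. Mouse 3 lies highest for all 4 genes.

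Among 11716 genes that reached 50 counts in every mouse, the 3 whose levels were most like those of Meg3 were Tmod2, Map6 and Medag (r from 0.97 to 0.98 over 7 mice), and Rtl1 ranked 13. For Rtl1 they were Cpeb1, Fuom and Sbsn (r from 0.96 to 0.98), with Meg3 at rank 13. For Rian they were Stard9, Galnt15 and Diaph2 (r from 0.98 to 0.99), and for Mirg Cfb, Clic5 and Arhgef40 (r from 0.96 to 0.97). With so many genes and 7 mice such values are a description only.

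The partners of these genes were described from lists of known pathway members. Of 23 Notch pathway genes 22 were tested, and 5 were called with more CAST and 1 with more B6 counts, or 27.3% beside 32.6% of all tested genes. The median log2 fold change was 0.06, beside 0.01 for all tested genes. The CAST-higher genes were the receptors Notch2 (0.23, FDR 0.0373) and Notch4 (0.27, FDR 0.193), the target Hey1 (0.53, FDR 0.00742), the glycosyltransferase Mfng (0.30, FDR 0.0399) and the protease Adam10 (0.24, FDR 0.0928), all by edgeR. Notch4 was not called without mouse 1, 2, 3, 5, 7 or 8 (FDR from 0.238 to 0.354), nor with the quasi-likelihood test (0.209), DESeq2 (0.243), one library size per mouse (0.239), no filter (0.208) or autosomal genes only (0.241). Adam10 was not called without mouse 4 (FDR 0.276) or with one library size per mouse (FDR 0.266). With a replicate block for the mouse, the likelihood-ratio test called 6 genes of the list with more CAST and 3 with more B6 counts, where it called 42.7% of all tested genes. The quasi-likelihood test with this block called 5 and 3, beside 37.6% of all tested genes. Dlk2, the closest relative of Dlk1, had 65.1 ± 24.5 B6 and 67.1 ± 18.8 CAST counts (SD, n = 7) and was not called (FDR 0.955, edgeR).

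All 11 thyroid hormone genes were tested, and 1 was called, or 9.09%. The transporter Slc16a10 was not called (FDR 0.325, edgeR), but with a replicate block it was called with more B6 counts (-0.22, FDR 0.0106, edgeR). Without mouse 3, Dio1 (2.31, FDR 0.0326) and the transporter Slco1c1 (2.25, FDR 0.00212), both with few counts, and the receptor Rxrb (-0.23, FDR 0.117) passed in edgeR. Dio1 (1.91, FDR 0.1) and Rxrb (-0.23, FDR 0.173) also passed without mouse 4. Slc16a10 passed without mouse 5 (-0.25), with an FDR that rounds to the threshold. Dio2, the deiodinase that activates thyroid hormone, had 150 ± 65.5 B6 and 144 ± 70.5 CAST counts (SD, n = 7; FDR 1.00, edgeR). Its level of 1.94 ± 0.725 CPM per kilobase stands beside 0.118 ± 0.0656 for Dio3. Of 19 genes that maintain imprints or form Polycomb complexes, 18 were tested and 2 were called, or 11.1% beside 32.6% of all tested genes. They were the demethylase Tet1 (-0.24, FDR 0.136) and the Polycomb subunit Eed (-0.49, FDR 0.0400), both with more B6 counts by edgeR. Tet1 was not called without mouse 3 or 8 (FDR 0.298 and 0.355). With a replicate block, 7 genes of this list were called with more B6 and 1 with more CAST counts in either test, again beside 42.7% and 37.6% of all tested genes. Zfp57 had 15.3 ± 8.99 B6 and 17.1 ± 6.18 CAST counts (SD, n = 7; FDR 0.725, edgeR).

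Other imprinted genes gave the scale for these ratios. Of 7 genes usually expressed from the maternal copy, 6 were called with more B6 counts, beside 17.2% of all tested genes. Among 14 tested genes usually expressed from the paternal copy, 13 were called with more CAST counts, beside 15.4% of all tested genes. The median log2 fold changes were -3.63 and 4.14, and a replicate block changed no call in these 2 lists. Phlda2, the maternal gene not called (-1.03, FDR 0.274, edgeR), passed without mouse 1 (-1.56, FDR 0.0157). Nnat, the paternal gene not called, had equal allele counts in 6 of 7 mice, which cannot be told apart from reads divided evenly. The CAST share of H19, a maternal noncoding RNA, was 0.0992% ± 0.0550, and that of the receptor gene Igf2r was 2.29% ± 0.219 (SD, n = 7). The other called maternal genes had 2.68% (Cdkn1c), 7.34% (Grb10), 29.5% (Slc22a18) and 34.1% (Kcnq1). Beside the 6.69% ± 4.67 of Dlk1, the B6 share of the hydrolase-like gene Mest was 6.43% ± 1.96 (SD, n = 7). Magel2 had 8.12% ± 4.90, and Igf2, the paternal growth factor, 10.6% ± 1.16 (SD, n = 7). The other called paternal genes had lower shares in Sgce (0.00761%), Snrpn (0.323%), Peg3 (0.608%), Plagl1 (1.27%) and Peg12 (1.55%). Lower than Dlk1 were also Peg10 (4.46%), Kcnq1ot1 (5.2%) and Airn (5.5%), while Ndn (9.43%) and Zrsr1 (31.1%) were higher. Of the 14526 autosomal genes that reached 10 counts in every mouse, 0.530% had a CAST share under 5%, as Meg3, Rtl1, Rian and Mirg did, and 0.902% had a B6 share under 15%, as Dlk1 did.

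**Figure D4:**
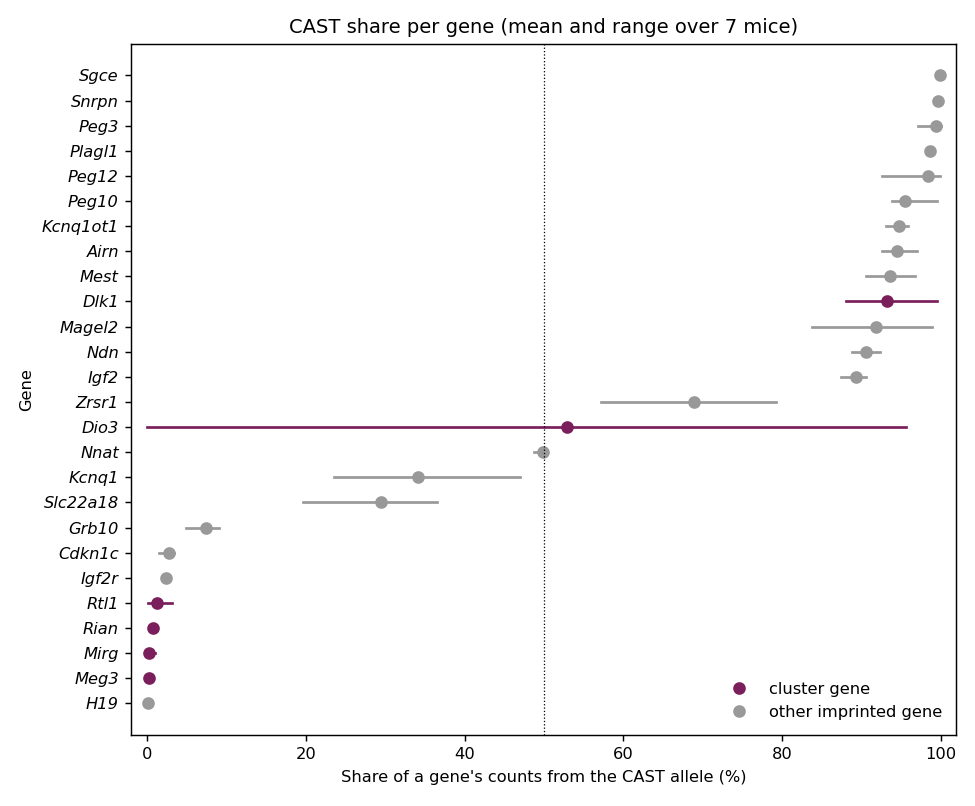
Share of counts from the CAST allele for the 6 cluster genes and for other imprinted genes that reached 10 counts in every mouse, as the mean (point) and range (line) of 7 mice. Meg3, Mirg, Rian and Rtl1 lie near 0%, Dlk1 between 88.1% and 99.5%, and Dio3 spans almost the whole axis.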

How the data were processed

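RNA from tibial growth plates of 7 F1 mice was measured. Per the labels and the methods of the study, the authors used Bowtie with at most 3 mismatches on a transcriptome of both strains (mm10), and EMASE to estimate counts by allele, for each lane and each end of a pair on its own. Values deposited are estimated counts without normalization. Names and positions are from GENCODE M21 (42462 of 43346 identifiers matched, 98.0%), sequences from RefSeq GRCm38.p6.

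Members and gene lists were chosen with earlier results of these data known. Genes with a count above 0 in every mouse were tested, and 679 of these round to 0 in every column. After rounding, CAST and B6 counts were set against each other in edgeR 4.0.16 (R 4.3.3; TMM, estimateDisp, glmFit, glmLRT), after the study's methods, without a block. Both alleles of a number come from the same mouse, so the numbers pair them. Their deviations correlated between -0.06 and 0.20 within a mouse and at most at 0.19 between mice. Named were the 6 genes, other genes of the domain and imprinted genes that reached 10 counts in every mouse, 5 flanking genes on each side, at most 4 called genes by smallest P per pathway list, genes that decide a check, and the 3 genes most alike in level. Genes of the lists outside this rule, Dlk2, Dio2 and Zfp57 among them, were added after their values were seen. Called genes of the Notch and thyroid hormone lists that had more B6 counts are in part not reported here. Ratios used a pseudocount of 0.5, and log2 CPM one of 0.1. Python 3.11.15 with numpy 2.4.6, pandas 2.3.3 and scipy 1.17.1 was used, and the fit was tested on simulated data. Depth was 14098019 to 37849667 counts per mouse. Alternatives were DESeq2 1.42.0, the quasi-likelihood test of edgeR, a replicate block, other filters, pseudocounts and library sizes, and each mouse left out.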

Additional observations from a re-analysis of the deposited data

How the results depend on the processing

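Dlk1, Meg3, Rtl1, Rian and Mirg kept their direction and were called in each of the 15 or 16 alternative fits run for each. Their log2 fold changes ranged from 3.46 to 4.05, from -9.31 to -8.54, from -6.33 to -5.83, from -7.12 to -6.92 and from -9.48 to -8.35, and their largest edgeR FDR was 0.0012. With a replicate block for the mouse, 4560 genes were called with more CAST and 4755 with more B6 counts, and the log2 fold change of Dio3 was 0.42 (FDR 0.850, edgeR). The block changed no call among the 6 genes and the genes around the domain, and it added calls in the Notch, thyroid and imprint maintenance lists. In a fit on whole-number totals alone, chosen after the data were seen, 10601 genes were tested, 1665 were called with more CAST and 1788 with more B6 counts, and 3 of the 6 genes were called, since Meg3 and Rian are not in it.

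Dio3 was not called except without mouse 3. With each mouse left out its log2 fold change ranged from 0.0931 to 1.29, and its ratio in the sign-flip permutation test was -0.0258 with a pseudocount of 0.1 (p = 1.00). With at least 10 counts required in every mouse, Dio3 was not tested. The difference in the lower-allele share of Meg3 and Mirg ranged from -0.0807 to 0.0606 percentage points with each mouse left out, positive without mice 2, 3 or 4, and was not called in any of these. Without Rn7s1, Rn7s2 and Rn7sk in the total, levels were 81.3 for Meg3, 13.6 for Rtl1, 86.2 for Rian and 15.7 CPM for Mirg, above those with the full total by construction. Depth limits Dio3 and the lower allele of Dlk1 and Mirg, and reads shared between alleles or genes enter every estimate.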
